A study of Mus musculus with 15 samples.

Results

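The ileum, the last stretch of the small intestine, is where most bile acids are taken back into the body. The comparison described here set 3 libraries of mouse ileal organoids exposed to 1 bile acid pool, named H10, against 3 libraries exposed to vehicle, out of 15 libraries in the series. H10 was modelled on the bile acids of humans, and 10% of its bile acids carried a hydroxyl group at the 12α position of the sterol. Both groups were primary epithelial cultures from the ileum of C57BL/6 mice at passage 2, split on day 10 and treated on day 14 for 24 h in medium with 0.2% bovine serum albumin. The labels name no allele, transgene or cell line in any group. The individual bile acids and their dose were not given, so every difference is one between a whole mixture and its vehicle. The labels do not say whether libraries a, b and c came from separate mice or cultures, and p-values then measure only the spread between these libraries, which may be technical. The remaining libraries, 3 each of H90 (human model, 90% 12α-hydroxylated), M10 and M90 (mouse model, 10% and 90%), entered the fit for a shared estimate of spread and stand beside H10 near the end.

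The libraries held 15712320 to 27136476 counts in vehicle and 18722586 to 25845919 in H10, and of 23420 gene symbols 13159 had enough counts to be tested. Levels are given in CPM, counts per 1000000 counts after TMM scaling, which corrects for composition, and are means ± SD of 3 libraries (n = 3) unless all 3 are listed in the order a, b and c. A gene is said to rise or fall when the quasi-likelihood test of edgeR put its p, adjusted by Benjamini-Hochberg across the 13159 genes, under 0.05. By that rule 6380 genes (48.5%) changed, 3161 (24.0%) of them higher and 3219 (24.5%) lower in H10. Counts of list members below are to be read against these shares. At least 2-fold changes were 557 higher (4.23%) and 883 lower (6.71%). All 3 H10 libraries lay above all 3 vehicle libraries for 3842 genes (29.2%) and below them for 4052 (30.8%), whether called or not. Scaling by library size alone would shift the median of all genes by -0.13 on the log2 scale and give 2254 higher and 4506 lower, 33.3% of calls higher in place of 49.5%. Small changes are therefore read relative to that shift. Transcripts of other tissues divided the 15 libraries into sets. Vehicle, H10 and H90 a had 22.96 to 35.9 CPM of the liver transcript Mup20 and at most 0.107 CPM of the collagen Col1a1 on plain totals, and the other 8 libraries had 0.356 to 0.583 and 3.74 to 8.63 CPM. Vehicle and H10 fall in 1 set. Defining markers of T cells and stomach were at or near 0 in both groups, with Cd3g, Cd8a, Muc5ac and Gkn1 at 0 counts. The 14 mesenchymal markers together gave 11.1 to 14.3 CPM in vehicle and 9.86 to 11.3 CPM in H10.

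Bile acids act in ileal enterocytes largely through FXR (gene Nr1h4), a nuclear receptor that pairs with RXR and binds inverted repeats of a hexamer spaced by 1 base. Activated FXR raises the binding protein and the basolateral exporter that carry bile acids through the cell, the repressor SHP (Nr0b2), and the hormone FGF15, which tells the liver to make less. Some bile acids also bind the vitamin D receptor and the xenobiotic receptor PXR, and fatty acid handling in enterocytes is set in part by PPARα, whose sites are direct repeats spaced by 1 base. Renewal of the same epithelium depends on crypt stem cells kept by Wnt and Notch signals, whose dividing offspring use E2F and CHR promoter elements for replication and mitosis genes.

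Promoters of a few members described below are shown here because they hold such elements. Each is the 250 bases before the RefSeq start on GRCm38.p6, 5′ to 3′ on the gene's strand. Capitals mark matches to the motif named for that gene, searched on both strands.

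Fabp6 (chr11:43601563-43601812, minus strand): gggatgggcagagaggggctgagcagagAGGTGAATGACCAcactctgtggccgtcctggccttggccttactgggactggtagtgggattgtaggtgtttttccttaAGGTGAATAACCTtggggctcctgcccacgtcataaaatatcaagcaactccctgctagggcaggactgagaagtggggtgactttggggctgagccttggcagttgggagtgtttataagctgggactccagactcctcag
Fabp1 (chr6:71199629-71199878, plus strand): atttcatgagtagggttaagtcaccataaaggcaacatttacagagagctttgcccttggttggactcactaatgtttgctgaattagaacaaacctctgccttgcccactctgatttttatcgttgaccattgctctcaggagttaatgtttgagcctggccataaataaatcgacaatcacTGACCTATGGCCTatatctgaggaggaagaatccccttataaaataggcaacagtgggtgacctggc
Chac1 (chr2:119350992-119351241, plus strand): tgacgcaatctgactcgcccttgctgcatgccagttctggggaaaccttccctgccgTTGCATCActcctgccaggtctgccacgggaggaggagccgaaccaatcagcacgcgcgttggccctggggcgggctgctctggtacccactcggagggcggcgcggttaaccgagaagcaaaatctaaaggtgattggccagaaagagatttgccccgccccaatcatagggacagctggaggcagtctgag
Mcm5 (chr8:75109259-75109508, plus strand): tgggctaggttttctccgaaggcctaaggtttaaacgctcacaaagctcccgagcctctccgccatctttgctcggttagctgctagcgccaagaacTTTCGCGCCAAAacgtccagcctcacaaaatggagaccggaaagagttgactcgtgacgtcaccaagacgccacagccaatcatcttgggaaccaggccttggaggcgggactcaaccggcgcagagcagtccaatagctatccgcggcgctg
Mcm6 (chr1:128359706-128359955, minus strand): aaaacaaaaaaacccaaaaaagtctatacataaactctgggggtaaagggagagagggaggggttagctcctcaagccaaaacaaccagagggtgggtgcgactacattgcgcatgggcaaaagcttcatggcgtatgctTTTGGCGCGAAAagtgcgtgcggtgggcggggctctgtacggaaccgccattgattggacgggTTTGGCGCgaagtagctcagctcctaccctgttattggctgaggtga
Top2a (chr11:99024190-99024439, minus strand): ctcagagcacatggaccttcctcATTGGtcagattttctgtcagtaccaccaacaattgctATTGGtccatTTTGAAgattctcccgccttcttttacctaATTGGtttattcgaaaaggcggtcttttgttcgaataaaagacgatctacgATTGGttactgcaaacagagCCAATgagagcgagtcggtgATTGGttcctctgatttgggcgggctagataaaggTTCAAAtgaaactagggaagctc

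In Fabp6, the ileal bile acid binding protein, the capitals are inverted repeats AGGTCANTGACCT with at most 2 mismatches, and they begin 222 and 142 bases before the start. The same search found none in these 250 bases of Nr0b2, Slc51a, Slc51b or Slc30a10. In Fabp1, the liver-type fatty acid binding protein, the capitals are a direct repeat, AGGTCANAGGTCA or its complement, with 1 mismatch. The search for direct repeats also allowed at most 2 mismatches. Chac1, a glutathione-degrading enzyme, holds the ATF4 element TGATGCAA as its complement TTGCATCA. Mcm5 and Mcm6, subunits of the replicative helicase, hold E2F octamers, of the forms TTTGGCGC, TTTCGCGC, TTTCCCGC and TTTGCCGC or their complements. Top2a, the topoisomerase of dividing cells, holds the CHR element TTTGAA and the CCAAT box, each also counted as its complement. The inverted and direct repeats share a half-site and can overlap, and overlapping octamers at Mcm5 and Mcm6 run together in the print.

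Across 32851 windows of 300 bases (250 before to 50 after each RefSeq start), E2F octamers stood in 2.26% of all windows, 3.75% of those of tested genes, 6.56% for genes that fell, 2.13% for genes that rose and 3.2% for genes not called. Among the replication genes listed below the share was 36.4%. The CHR element stood in 17.9% of all windows, 12% of those of tested genes, 15.1% for genes that fell, 10.7% for genes that rose and 11.1% for genes not called. In the mitosis list it stood in 71.2%. For the CCAAT box the shares in the same order were 37.4%, 37.9%, 41.2%, 36.2% and 37.1%, and 80.8% in the mitosis list. The inverted repeat stood in 1.14% of all windows, 0.969% of those of tested genes, 0.795% for genes that fell, 1.22% for genes that rose and 0.927% for genes not called. Genes at least 2-fold higher had it in 2.53% of windows. The direct repeat stood in 3.86% of all windows, 3.16% of those of tested genes, 2.82% for genes that fell, 3.48% for genes that rose and 3.17% for genes not called. The list of PPAR targets had it in 16.7%. The ATF4 element stood in 0.895% of all windows, 0.649% of those of tested genes, 0.331% for genes that fell, 1.35% for genes that rose and 0.455% for genes not called. The ATF4 list had it in 18.9%. A direct repeat of the same hexamer spaced by 3 bases stood in 2.18% of windows of tested genes and 2.22% for genes that rose. It stood in 2.14% for genes at least 2-fold higher, 1.26% for genes that fell and 2.59% for genes not called. The TATA box TATAAA stood in 7.53% for tested genes, 8.53% for genes that rose, 7.26% for genes that fell and 13.5% for genes at least 2-fold higher. These shares describe letters in windows and were not tested.

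FXR targets that move or sense bile acids gave some of the largest rises of the whole comparison. Of 27 tested genes of the bile acid list, 15 rose and 2 fell, with a median log2 change of 0.36 against -0.0040 over all tested genes. Fabp6, which holds bile acids in the cytosol, stood at 61.7, 46.1 and 62.4 CPM in vehicle and at 6899, 7502 and 7605 CPM in H10. It went from a minor transcript to the largest gain in CPM of any gene (log2 change 7.02, SE 0.131). Fgf15, on chromosome 7 at 144896531 to 144900953, had 14.4, 17.0 and 18.9 CPM in vehicle and 961, 998 and 958 CPM in H10. Each H10 value of this hormone gene was far above each vehicle value, a log2 change of 5.84 (SE 0.0922, adjusted p = 9.32e-20). Nr0b2, the repressor SHP, had 11, 0 and 5 counts in the vehicle libraries and 216, 253 and 257 in H10, a log2 change of 5.60 with a 95% interval of 4.82 to 6.37. The vehicle libraries were near the floor of detection, so the size of that change is less sharply set than those of Fabp6 and Fgf15.

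Export and import did not move alike. The basolateral exporter has the subunits Slc51a and Slc51b. Slc51a went from 184, 189 and 180.1 CPM to 1139.5, 1228 and 1196 CPM, 6.44-fold, and Slc51b from 50.04, 53.7 and 54.7 CPM to 559, 592 and 618 CPM, 11.1-fold. The groups lay far apart for both. Abcc2, an apical exporter of conjugates, rose 2.26-fold to 873 ± 44.3 CPM, and Abcc3, a basolateral one, rose 1.29-fold to 337 ± 9.05 CPM. The apical importer Slc10a2 had 56.2, 71.2 and 56.97 CPM in vehicle and 67.5, 75.6 and 66.8 CPM in H10, overlapping ranges, and was not called (log2 change 0.18, 95% interval -0.11 to 0.48). Nr1h4, FXR itself, rose 1.43-fold, from 120.5 ± 3.82 to 172 ± 4.54 CPM. Its partner Rxra fell slightly (log2 change -0.28, SE 0.0503), as did Nr5a2, the factor LRH-1 that SHP restrains (log2 change -0.54, SE 0.0722). The membrane bile acid receptor Gpbar1 stood at 0.577 and 0.802 CPM and was not called.

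**Figure D1:**
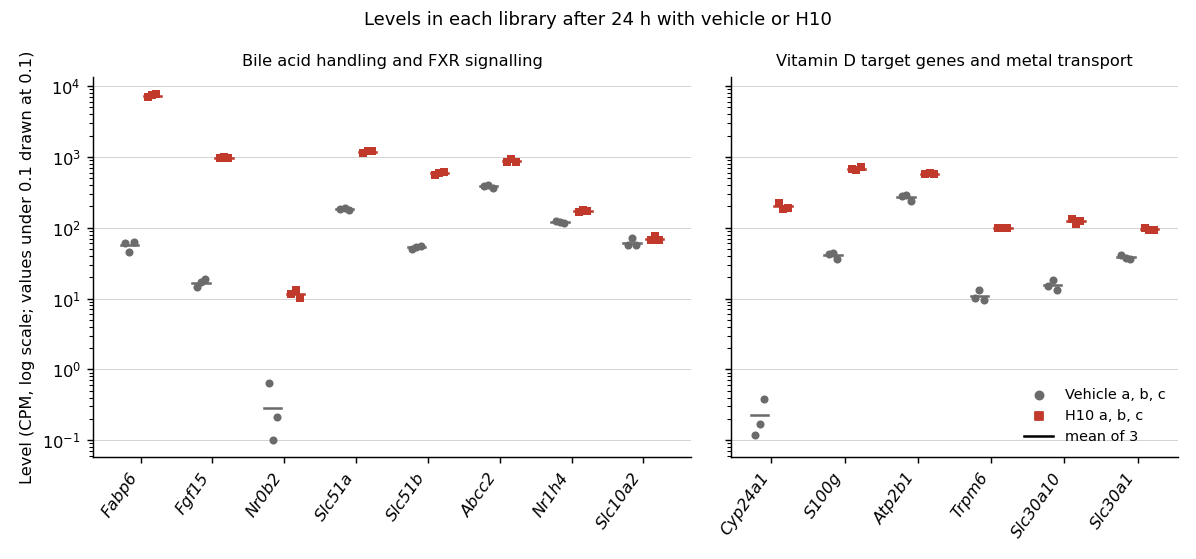
CPM on a log scale for each vehicle library (grey circles) and each H10 library (red squares), with a line at the mean of 3; values under 0.1 CPM are drawn at 0.1. Fabp6, Fgf15, Nr0b2 and Cyp24a1 show the widest gaps, and Slc10a2 is the gene whose groups overlap.

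The largest log2 change of any gene in H10 was that of Cyp24a1, the 24-hydroxylase that inactivates active vitamin D and a classical target of its receptor. It had 2, 5 and 9 counts in the vehicle libraries and 4131, 3583 and 4835 counts in the H10 libraries. That is 0.117, 0.171 and 0.387 CPM against 223, 186 and 189.6 CPM, a log2 change of 9.73 with a 95% interval of 9.42 to 10.03 (adjusted p = 9.97e-31). The vehicle libraries were near the floor of detection here too. That interval, made from the F statistic, is narrower than so few vehicle counts allow, so the size of the change is uncertain. S100g, the calcium-binding protein calbindin-D9k that ferries calcium across enterocytes, had 42.0, 43.4 and 36.5 CPM in vehicle and 673, 644 and 724 CPM in H10, 16.7-fold. Atp2b1, the basolateral calcium pump, rose 2.15-fold, from 269 ± 26.6 to 578 ± 10.8 CPM. Cyp3a11, an oxidase that responds to the vitamin D receptor and to PXR, rose 3.62-fold to 772 ± 50.4 CPM. The receptor's own transcript Vdr stood at 700.1 ± 29.8 and 735 ± 30.1 CPM and was not called (95% interval of the log2 change -0.014 to 0.15). In all, 5 of 14 tested members of the vitamin D list rose and 3 fell (4 and 4 with library size alone). Over all tested genes 24.0% rose and 24.5% fell. The calcium channel gene Trpv6 was listed at 0 in all 6 libraries, as was the ribosomal protein gene Rpl26, which every cell uses.

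Mineral transport moved beyond calcium. Trpm6, the apical magnesium channel, had 10.2, 13.1 and 9.63 CPM in vehicle and 99.1, 99.4 and 98.4 CPM in H10, 8.89-fold, with all H10 libraries far above vehicle. Slc30a10, a manganese exporter, had 15.1, 18.1 and 13.1 CPM and then 132, 113 and 123 CPM, 7.90-fold. Its groups were also wide apart. Slc30a1, the plasma membrane zinc exporter, rose 2.48-fold and Slc39a8, an importer of zinc and manganese, 1.97-fold. Metallothionein genes Mt1 and Mt2 rose 1.29-fold and 1.20-fold. Iron genes divided. The apical ferric reductase Cybrd1 fell (log2 change -1.53, SE 0.259) and so did the iron exporter ferroportin, Slc40a1 (log2 change -0.56, SE 0.127), while transferrin receptor Tfrc (log2 change 0.42, SE 0.0441) and the ferroxidase hephaestin, Heph (log2 change 0.49, SE 0.0465), rose. Over the metal list 18 of 33 tested genes rose and 4 fell, and with library size alone 12 rose and 6 fell.

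Lipid handling rose broadly. Of 49 tested PPAR targets and genes of fatty acid oxidation, 44 rose and 1 fell (median log2 0.80). The 1 that fell was Bdh1, a ketone body dehydrogenase (log2 change -0.24, SE 0.0696). Pdk4, the kinase that holds pyruvate back from oxidation, had 1.398, 4.71 and 2.84 CPM in vehicle and 45.6, 52.9 and 37.7 CPM in H10. The vehicle libraries varied several-fold among themselves, yet all lay well under H10 (log2 change 3.82, SE 0.275, adjusted p = 2.98e-07). Cyp4a10, a fatty acid ω-hydroxylase, went from 0.699, 0.786 and 1.12 CPM to 9.86, 15.9 and 11.2 CPM (log2 change 3.80, SE 0.295, adjusted p = 7.48e-10). Acaa1b, a peroxisomal thiolase, went from 10.4, 12.3 and 12.7 CPM to 99.5, 115 and 111 CPM. Its groups were about as far apart in every library, 9.12-fold on the fit.

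The fatty acid binding proteins Fabp1 and Fabp2 rose 9.85-fold and 4.36-fold. Fabp1 stood at 121, 149.9 and 134 CPM in vehicle and 1162, 1474 and 1363 CPM in H10. Creb3l3, a membrane-bound transcription factor of lipid metabolism, rose 3.92-fold to 298 ± 14.3 CPM. Enzymes of mitochondrial oxidation moved by smaller steps. Carnitine palmitoyltransferase Cpt1a rose 1.35-fold, Cpt2 1.70-fold, the carnitine carrier Slc25a20 2.30-fold and the trifunctional protein subunit Hadha 1.90-fold. Peroxisomal Hsd17b4 rose 2.76-fold. Ppara itself rose 1.72-fold, from 106 ± 3.69 to 182 ± 6.32 CPM, while Pparg stood at 38.6 ± 3.92 and 43.3 ± 0.986 CPM and was not called.

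Genes that absorb dietary fat and pack it into chylomicrons rose as well, 26 of 30 higher and 2 lower (median log2 0.77). Plb1, a brush border phospholipase, had 3.09, 4.17 and 3.27 CPM in vehicle and 69.4, 79.2 and 77.8 CPM in H10, 21.1-fold. No other member of the list changed as much. Mttp, which loads lipid onto apolipoprotein B, rose 2.13-fold to 2193 ± 39.1 CPM and Apob itself 2.15-fold to 1822 ± 33.3 CPM. Mogat2, which rebuilds diglyceride from absorbed monoglyceride, rose 2.54-fold, Apoa4 2.45-fold and the lipid droplet gene Cidec 4.08-fold. Gpam, which starts glycerolipid synthesis from glycerol phosphate, fell (log2 change -0.67, SE 0.122), and so did the seipin gene Bscl2 (log2 change -0.45, SE 0.124).

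Fatty acid synthesis divided within itself, with 8 members higher and 8 lower of 18 (6 and 10 with library size alone). The desaturases of polyunsaturated fat fell. Fads1 had 53.02, 55.4 and 61.1 CPM in vehicle and 12.8, 12.5 and 10.7 CPM in H10, 4.71-fold lower, and Fads2 had 188, 175 and 195 and 59.6, 62.5 and 66.4 CPM, 2.96-fold lower. Scd1, which makes monounsaturated fat, rose 2.86-fold to 558 ± 25.8 CPM. Of the acetyl-CoA carboxylases, Acacb, the form tied to the mitochondrion, rose from 2.07 ± 0.483 to 23.2 ± 3.42 CPM (log2 change 3.50, SE 0.157), and Acaca, the cytosolic form, stood at 50.9 ± 2.76 and 47.2 ± 2.90 CPM and was not called. Fasn and Acly, the synthase and the source of its cytosolic acetyl-CoA, fell 1.30-fold and 1.605-fold.

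Cholesterol synthesis moved little. Of 27 genes 16 rose and 6 fell, none of them 2-fold. Hmgcs1 rose most, 1.597-fold to 1202 ± 8.45 CPM. Among sterol efflux genes, Abca1 rose 1.87-fold, the esterifying enzyme Soat2 2.19-fold, and the phospholipid remodelling enzyme Lpcat3 2.10-fold, while Soat1 fell (log2 change -0.75, SE 0.0953).

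**Figure D2:**
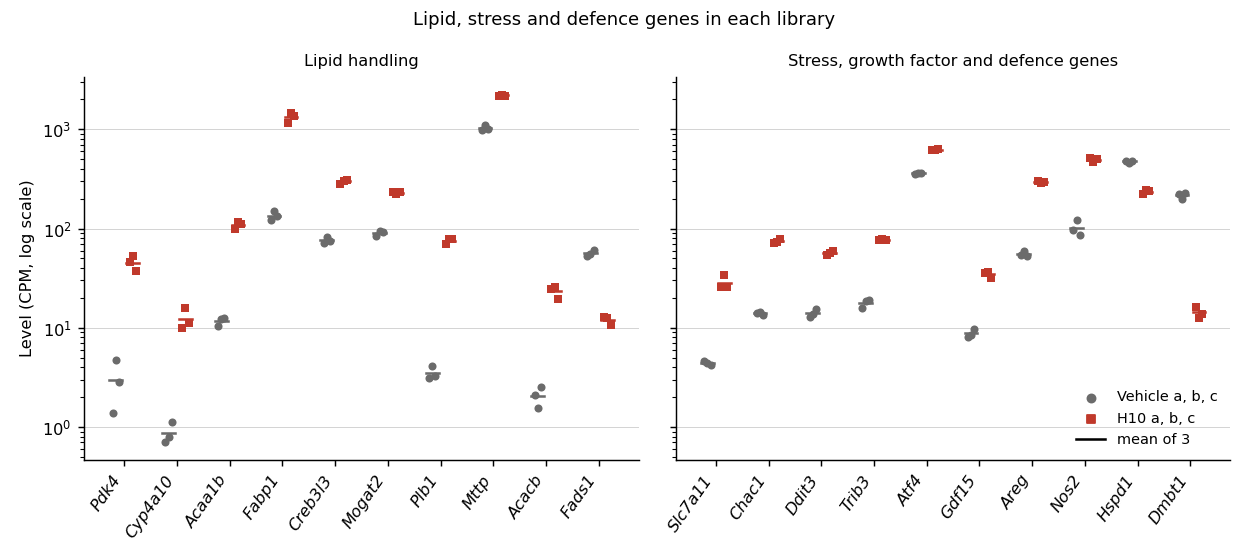
CPM on a log scale in each vehicle library (grey circles) and each H10 library (red squares), with lines at the means of 3, for lipid genes on the left and stress, growth factor and defence genes on the right. Fads1, Hspd1 and Dmbt1 are the genes drawn here that fell, and no gene drawn here has overlapping groups.

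Drug metabolism genes, many of them PXR targets, gave 28 higher and 8 lower of 42 (median log2 0.46). Gstm3, a glutathione transferase, had 438, 407 and 497 CPM in vehicle and 2419, 2960.3 and 2749.9 CPM in H10. After Fabp6 this was the second largest gain in CPM, 6.06-fold. Gstm1 rose 2.98-fold, the carboxylesterase Ces2a 2.5-fold, cytochrome P450 reductase Por 2.77-fold and the efflux pump Abcb1a 1.97-fold. The receptor PXR, Nr1i2, rose 1.74-fold to 165 ± 1.57 CPM, and CAR, Nr1i3, stood at 25.6 ± 3.74 and 24.8 ± 0.628 CPM and was not called. Cyp2b10, the usual reporter of CAR, fell from 311 ± 18.8 to 196 ± 21.8 CPM (log2 change -0.66, SE 0.122, adjusted p = 0.000706). Cyp2c29 fell too (log2 change -0.64, SE 0.114), as did Ugt1a6a (log2 change -1.93, SE 0.257) and the sulfotransferase Sult1c2 (log2 change -1.38, SE 0.180). Genes of this kind come in families of near-identical copies, and how shared reads were assigned is not given in the sources used here.

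Genes of DNA replication fell without exception among those tested, 47 of 47 (median log2 -2.18). In bulk RNA, fewer cells of a type and less RNA per cell cannot be told apart, and this holds for every list of a cell type or cell state. Mcm5 had 78.5, 67.6 and 77.9 CPM in vehicle and 9.54, 10.6 and 8.51 CPM in H10, 7.84-fold lower. Mcm6 had 97.1, 100.3 and 104 and 15.5, 20.7 and 17.4 CPM, 5.63-fold lower. The helicase subunits fell together, Mcm2, Mcm3, Mcm4 and Mcm7 5.05-fold, 7.03-fold, 5.80-fold and 5.38-fold. Rrm1 and Rrm2, the subunits of ribonucleotide reductase, fell 6.39-fold and 6.70-fold, and the checkpoint adaptor Clspn fell most, 8.29-fold. Pcna, the sliding clamp, fell far less (log2 change -0.60, SE 0.0594, from 140.0 ± 3.63 to 92.0 ± 6.15 CPM), and so did Gmnn, the brake on licensing (log2 change -0.52, SE 0.112).

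Mitosis genes fell in the same way, 60 of 60 and 59 of them at least 2-fold (median log2 -2.40). Their summed level was 3728 to 4001 CPM in vehicle and 767 to 842 CPM in H10. Top2a had 259, 243 and 253 CPM and then 42.2, 34.2 and 36.5 CPM, 6.70-fold lower. Mki67, the proliferation marker Ki-67, had 292, 296 and 280.3 CPM and then 54.5, 46.7 and 47.2 CPM, 5.86-fold lower. Both stayed detectable in every H10 library. Cyclins Ccna2 and Ccnb1 fell 5.98-fold and 5.12-fold, the kinases Plk1 and Aurkb 5.57-fold and 6.45-fold, and Foxm1, the transcription factor of this programme, 6.67-fold. The checkpoint protein Bub3 fell least (log2 change -0.90, SE 0.0803).

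Repair genes of homologous recombination and the Fanconi pathway, which act at replication forks, gave 28 lower and 0 higher of 30 (median log2 -2.36). Brca1 fell from 22.1 ± 1.32 to 4.10 ± 0.613 CPM (log2 change -2.44, SE 0.229, adjusted p = 7.72e-11). Atr, the replication stress kinase, fell less (log2 change -0.96, SE 0.143). Rbbp8, which resects broken ends, was not called, at 36.2 ± 1.32 and 38.2 ± 3.71 CPM, and neither was the meiotic gene Mnd1 at 1.65 and 0.726 CPM.

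Regulators of the cycle did not all fall. Of 21 E2F and retinoblastoma genes 15 fell and 3 rose. E2f7 and E2f8, repressors that are themselves E2F targets, fell 8.85-fold and 7.18-fold, and E2f1 3.45-fold. Rb1, the retinoblastoma gene, rose 1.39-fold to 159.7 ± 4.15 CPM. Cdc25a, a phosphatase that drives entry into S phase, rose as well, from 56.5, 62.6 and 62.8 CPM in vehicle to 98.2, 99.3 and 104 CPM in H10. Its groups did not overlap and its change of 0.73 (SE 0.0704, adjusted p = 3.99e-11) ran against the replication genes around it. Among D cyclins, Ccnd1 fell 4.25-fold, from 76.0 ± 6.43 to 17.9 ± 1.98 CPM, and Ccnd2 fell 3.05-fold, while Ccnd3 was not called (log2 change -0.16, SE 0.0874). The kinase Cdk4 fell from 182 ± 11.3 to 74.8 ± 3.11 CPM.

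The list of kinase inhibitors, D cyclins and p53 targets gave 13 higher and 6 lower of 31 (10 and 8 with library size alone), and the inhibitors diverged. Cdkn1a, p21, had 333, 387 and 343 CPM in vehicle and 808, 737 and 751 CPM in H10, 2.16-fold. Cdkn2b, p15, rose 1.71-fold to 188 ± 8.19 CPM. Cdkn1b, p27, stood at 80.4 ± 5.24 and 83.4 ± 1.32 CPM and was not called, and Cdkn2c, p18, fell to 2.67 ± 1.19 CPM (log2 change -1.75, SE 0.290). Of p53 targets in the same list, Trp53inp1 rose 1.57-fold and Mdm2 1.23-fold (adjusted p = 0.0572 for Mdm2 with library size alone), while Phlda3 (log2 change -0.23, SE 0.180), Aen (log2 change -0.28, SE 0.140) and Bax (log2 change -0.019, SE 0.0740) were not called. Trp53 itself fell to 69.6 ± 1.75 from 109 ± 11.7 CPM. Gdf15, a stress hormone that also answers to ATF4, rose 3.95-fold to 34.7 ± 2.57 CPM.

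Machinery that builds ribosomes was lower. In the ribosome biogenesis list 46 of 50 fell and 0 rose (median log2 -0.81). Dkc1, the pseudouridine synthase, fell most (log2 change -1.71, SE 0.117), nucleolin Ncl fell from 587 ± 26.6 to 293 ± 6.84 CPM and Npm1 from 619 ± 25.1 to 320.0 ± 5.15 CPM. Myc, which drives these genes, fell from 53.2, 52.3 and 57.8 CPM to 25.9, 29.6 and 29.4 CPM (log2 change -0.94, SE 0.106, adjusted p = 1.53e-09), and Mycn fell from 6.52 to 0.834 CPM (log2 change -2.98, SE 0.506). Of 62 cytosolic ribosomal proteins 58 fell, with a median log2 change of -0.28, and together they held 39600.0 to 44000.0 CPM in vehicle and 32340.0 to 34610.0 CPM in H10. Respiratory chain subunits gave 24 higher and 2 lower of 49, a direction that turned to 5 higher and 15 lower with library size alone. Cytosolic and mitochondrial chaperones fell, 12 of 20 with 2 higher. Hspd1, the mitochondrial chaperonin, fell 2.01-fold from 474 ± 14.3 to 236 ± 12.4 CPM and Hsp90ab1 fell 1.54-fold from 2047 ± 77.9 to 1326 ± 34.7 CPM, while inducible Hspa1a rose (log2 change 0.82, SE 0.248, adjusted p = 0.00576, and 0.0539 without H10 library b).

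Crypt stem cell genes and Wnt targets gave 25 lower and 5 higher of 37 (median log2 -0.82). Olfm4, a secreted glycoprotein of crypt base stem cells and a Notch target, had 1348, 2297 and 2032 counts in the vehicle libraries and 13, 5 and 11 in H10. That is 78.5, 78.4 and 87.4 CPM against 0.700, 0.260 and 0.431 CPM, the largest fall among all called genes (log2 change -7.45, SE 0.252, adjusted p = 2.6e-20). Lgr5, the stem cell receptor for R-spondin, was low to begin with and fell from 6.70, 8.44 and 8.08 CPM to 2.10, 3.38 and 3.41 CPM (log2 change -1.38, SE 0.265, adjusted p = 3.65e-05). Axin2, a direct Wnt target and feedback inhibitor, fell from 49.6, 55.5 and 55.1 CPM to 6.36, 6.19 and 8.27 CPM, 7.64-fold. Other Wnt targets fell less, Sox9 2.70-fold, Ephb2 3.09-fold, Rnf43 1.92-fold and Lgr4 1.37-fold. Ascl2, the master factor of these stem cells, went from 2.75 to 1.10 CPM (log2 change -1.31, SE 0.410, adjusted p = 0.0076). Myb, a crypt transcription factor outside the list, fell from 56.6, 54.6 and 66.6 CPM to 7.17, 6.08 and 4.55 CPM, 10.1-fold. Of the 5 members of the list that rose, 1 rose at least 2-fold, and the largest log2 change was 1.83. Tgif1 and Ets2 rose 1.54-fold and 1.71-fold.

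The list of Notch and secretory fate genes gave 4 higher and 9 lower of 21, with the Notch readouts among those that fell. Nrarp, a feedback target of Notch, had 45.1, 42.2 and 48.8 CPM in vehicle and 5.87, 6.29 and 5.68 CPM in H10, 7.63-fold lower. Hes1 fell from 47.7, 50.8 and 52.7 CPM to 25.4, 23.2 and 23.4 CPM, and Notch1 fell from 41.2 ± 4.3 to 14.6 ± 2.16 CPM. In none of these 3 did the groups overlap. Factors of the secretory lineage were divided. Atoh1, which Hes1 represses, rose from 7.46, 7.41 and 7.52 CPM to 13.7, 14.0 and 15.4 CPM (log2 change 0.95, SE 0.140, adjusted p = 4.42e-07), Spdef, needed for goblet and Paneth maturation, rose from 8.88 ± 1.20 to 17.8 ± 1.49 CPM, and Klf4 rose from 107 ± 11.4 to 204 ± 4.86 CPM. Neurog3, the endocrine progenitor factor, fell from 2.78 to 1.03 CPM (log2 change -1.41, SE 0.442, adjusted p = 0.00795). Gfi1 (log2 change 0.49, SE 0.423) and the Notch ligand Dll1 (log2 change 0.10, SE 0.133) were not called, while Dll4 rose (log2 change 0.73, SE 0.155).

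Goblet cell markers gave 18 higher and 0 lower of 24 (median log2 0.77). Muc2, the gel-forming mucin, had 121, 136 and 149 CPM in vehicle and 647, 741 and 791 CPM in H10, 5.36-fold. Zg16, a mucus lectin, had 72.3, 81.3 and 85.6 CPM and then 561, 553 and 576 CPM, 7.05-fold. The trefoil peptide Tff3 rose 2.95-fold and the mucus protein Fcgbp 2.60-fold, each with groups apart. The symbol Clca1 stood at 7.37 and 5.25 CPM and was not called. The files use older symbols in this family, with Clca3b entered as Clca4. The Clca1 entry may therefore not be the mucus protein that now has this name. Clca3, outside the list, had 990, 1965 and 1366 counts in vehicle and 9006, 9444 and 12523 in H10, and rose. St6galnac1 was near its detection limit at 0.833 and 0.170 CPM. The list that marks Paneth cells, the antimicrobial neighbours of the stem cells, gave 13 higher and 2 lower of 21. Lysozyme Lyz1 rose from 34.3, 40.4 and 54.9 CPM to 111, 106 and 113 CPM, 2.53-fold, and the ribonuclease Ang4 rose from 4.58 to 11.8 CPM (log2 change 1.37, SE 0.198). Defensin genes are near-identical copies, so the values of single ones, such as 6.13 ± 2.29 and 12.0 ± 0.700 CPM for Defa22, are uncertain.

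Of 33 tested hormones and factors of enteroendocrine cells, 16 rose, 0 fell and 17 were not called. Gcg, the precursor of GLP-1, had 512, 444 and 431 CPM in vehicle and 1016, 1046 and 1076 CPM in H10, 2.26-fold. Cck, the gallbladder hormone, had 105, 108 and 106 CPM and then 269, 247 and 261 CPM, 2.43-fold. Secretin Sct rose 2.30-fold, neurotensin Nts 2.15-fold and Pyy 1.70-fold. The hormone gene Tac1 was not called (log2 change 0.081, SE 0.162). Among transcription factors Neurod1 (log2 change 0.40, SE 0.171), Nkx2-2 (log2 change -0.008, SE 0.259), Insm1 (log2 change 0.23, SE 0.173) and Fev (log2 change 0.052, SE 0.237) were not called. Whether hormones and factors differ in their change was not tested. Tuft cell markers gave 8 higher and 0 lower of 24, where 24.0% of all tested genes rose and 24.5% fell. Dclk1 stood at 33.8 ± 2.90 and 52.1 ± 1.88 CPM (log2 change 0.62, SE 0.0971, adjusted p = 1.54e-06) and the lineage factor Pou2f3 was not called (log2 change 0.23, SE 0.218).

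**Figure D3:**
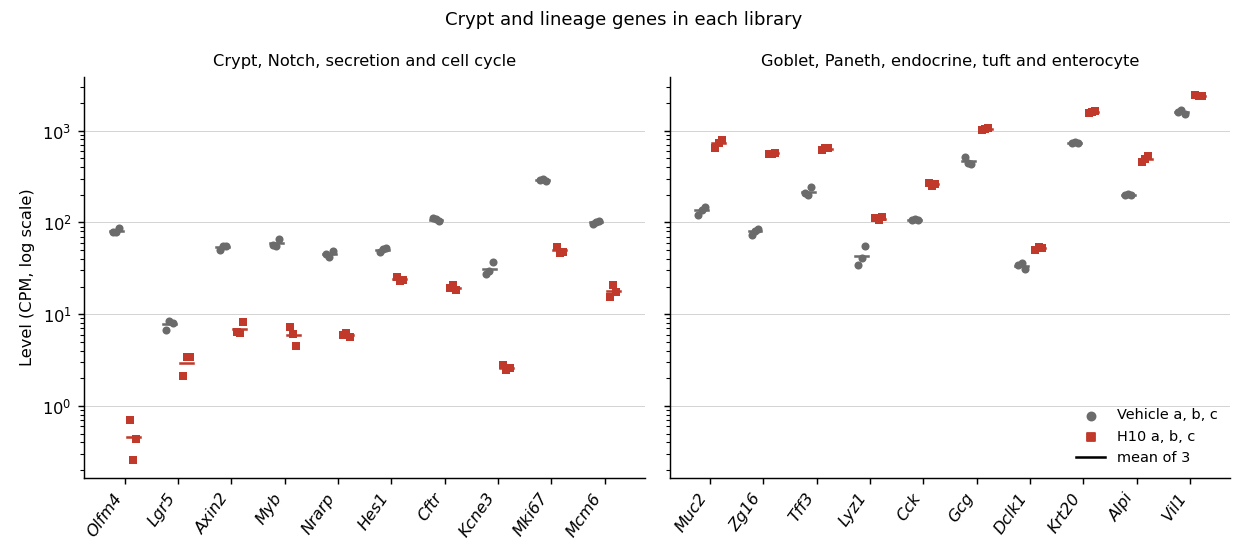
CPM on a log scale in each vehicle library (grey circles) and each H10 library (red squares), with lines at the means of 3. The 10 crypt, Notch, secretion and cell cycle genes on the left are all lower in H10 and the 10 lineage genes on the right are all higher, without overlap.

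The ion transport list gave 14 higher and 8 lower of 31 (10 and 8 with library size alone). Several genes of chloride secretion, a task of crypt cells, were among those that fell, and the examples were chosen after their values were seen. Cftr, the apical chloride channel, had 111, 108 and 103 CPM in vehicle and 19.2, 20.6 and 18.2 CPM in H10, 5.56-fold lower. Kcne3, the regulator of the basolateral potassium channel, had 27.6, 29.4 and 36.9 CPM and then 2.80, 2.44 and 2.59 CPM, 12.0-fold lower, and its pore subunit Kcnq1 fell 3.01-fold. Slc12a2, the basolateral chloride uptake carrier, fell from 173, 168 and 188 CPM to 39.2, 34.4 and 35.5 CPM, 4.85-fold, and the calcium-gated potassium channel Kcnn4 fell 6.72-fold. These 5 were lower in all 3 H10 libraries. Ano1, a calcium-gated chloride channel, rose from 13.2 ± 0.589 to 24.0 ± 1.20 CPM. On the absorptive side Slc26a3, the chloride and bicarbonate exchanger, rose 1.57-fold, Slc9a2 1.61-fold and the sodium pump subunit Atp1b1 1.58-fold, while Slc9a3 was not called (log2 change 0.24, SE 0.132).

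Genes of the mature enterocyte rose, though not all of them. Brush border cytoskeleton and adhesion genes gave 21 higher and 5 lower of 33. Villin Vil1 rose from 1589.6 ± 69.1 to 2402 ± 17.9 CPM, ezrin Ezr from 879 ± 47.0 to 1618 ± 7.82 CPM and keratin Krt20, a mark of the upper villus, from 729, 742 and 726 CPM to 1569.6, 1587 and 1619.7 CPM, 2.173-fold. The intestinal factor Cdx1 fell to 135 ± 6.47 from 272 ± 17.1 CPM and Lgals2, a lectin, fell 1.80-fold. Digestive enzymes gave 15 higher and 1 lower of 22. The alkaline phosphatases Alpi and Akp3 rose 2.46-fold and 5.65-fold, and sucrase-isomaltase Sis, among the most abundant transcripts, rose 1.21-fold to 9415 ± 145 CPM (adjusted p = 0.148 with library size alone). Aminopeptidase Anpep was not called, at 1295 ± 70.2 and 1223 ± 47.2 CPM. Nutrient transporters split, 12 higher and 6 lower of 29 (7 and 10 with library size alone), beside 24.0% higher and 24.5% lower over all tested genes. Slc6a14, a broad amino acid carrier, fell from 17.7, 18.9 and 20.8 CPM to 0.916, 1.87 and 0.980 CPM (log2 change -3.94, SE 0.357, adjusted p = 8.47e-11), and the lactate carrier Slc5a12 fell from 6.33 to 0.597 CPM, while the basolateral glucose carrier Slc2a2 rose 1.63-fold. The apical glucose carrier Slc5a1 was not called (log2 change 0.24, SE 0.107).

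Retinoid genes held 1 sharp rise. Isx, the intestinal repressor that vitamin A itself induces, had 1.81, 3.93 and 3.44 CPM in vehicle and 24.8, 20.4 and 14.4 CPM in H10, 6.22-fold. Its groups did not overlap. The retinol-binding protein Rbp2 rose 2.174-fold, Bco2, which cleaves carotenoids, 3.47-fold, and the saturase Retsat 2.90-fold, while Lrat, which stores retinol as esters, fell (log2 change -0.95, SE 0.180) and Rbp7 fell (log2 change -2.19, SE 0.242). Bcmo1, a target of Isx repression, was not called (log2 change 0.039, SE 0.0917). In all 11 rose and 2 fell of 18.

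The ATF4 programme, which cells start when amino acids run short or proteins misfold, was raised. Of 38 tested members 28 rose, 2 fell and the median log2 change was 0.54. Chac1 had 14.0, 14.3 and 13.4 CPM in vehicle and 70.9, 73.9 and 77.6 CPM in H10, 5.32-fold. Ddit3, the factor CHOP, had 12.7, 13.9 and 15.6 CPM and then 54.5, 57.03 and 59.4 CPM, 4.04-fold, and the pseudokinase Trib3 rose 4.33-fold. Slc7a11, the cystine importer that NRF2 also controls, rose from 4.60, 4.41 and 4.26 CPM to 25.6, 33.8 and 26.0 CPM, 6.44-fold. Groups were apart for all 4. Atf4 itself rose 1.72-fold to 620.3 ± 4.31 CPM and Asns, asparagine synthetase, 2.19-fold. Serine synthesis stood aside: Phgdh (log2 change -0.24, SE 0.116) and Psat1 (log2 change 0.11, SE 0.0689) were not called and Shmt2 fell (log2 change -0.38, SE 0.0719). The glutamine carrier Slc1a5 also fell (log2 change -0.44, SE 0.0737).

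Chaperones of the endoplasmic reticulum moved less, 22 higher and 3 lower of 35 (14 and 6 with library size alone), with none of those that rose reaching 2-fold. Hspa5, the chaperone BiP, rose 1.25-fold, Xbp1 1.31-fold and the degradation gene Herpud1 1.82-fold, while Pdia4 fell 1.20-fold and Hsp90b1 was not called (log2 change 0.068, SE 0.0397). P4hb, a disulfide isomerase that is also the small subunit of Mttp's transfer complex, rose from 1986 ± 63.5 to 3869.8 ± 52.3 CPM. Among NRF2 targets 15 rose and 6 fell of 31 (15 and 11 with library size alone). Srxn1, which repairs peroxiredoxins, rose 1.75-fold and Gclm, of glutathione synthesis, 1.61-fold, but the reductase Nqo1 was not called (log2 change -0.20, SE 0.122). Glycolysis and hypoxia genes gave 20 higher and 2 lower of 31 (13 and 2 with library size alone), with a largest log2 change of 1.81. The angiogenic factor Vegfa rose 2.83-fold and hexokinase Hk2 2.13-fold, both by less than that.

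Ligands of the EGF receptor and many immediate early genes rose. The list of EGF receptor ligands and receptors gave 7 higher and 4 lower of 14 (6 and 5 with library size alone). Areg, amphiregulin, a ligand of the EGF receptor, had 53.9, 60.0 and 53.4 CPM in vehicle and 299, 287 and 294 CPM in H10, 5.26-fold. Ereg, epiregulin, had 47.7, 50 and 47.5 CPM and then 161, 181 and 170.4 CPM, 3.52-fold, and Btc and Hbegf rose 2.69-fold and 2.29-fold. Each of these 4 ligands was higher in all H10 libraries. The receptor Egfr was not called (log2 change 0.25, SE 0.124), Erbb2 fell slightly (log2 change -0.28, SE 0.0539) and the receptor inhibitor Errfi1 rose 2.166-fold. Of 33 immediate early and feedback genes 21 rose and 4 fell. Atf3 rose 4.39-fold, Phlda1 3.87-fold and Fosl1 from 1.58 to 6.55 CPM, while Etv4 (log2 change -1.67, SE 0.235) and Etv5 (log2 change -1.15, SE 0.278), factors downstream of growth factor signalling, fell. Genes of the regenerating, fetal-like epithelium gave 22 higher and 2 lower of 33. Sprr1a rose 4.55-fold, the claudin Cldn4 2.49-fold and the urokinase receptor Plaur 2.65-fold, whereas Ly6a, the marker Sca-1, was not called (log2 change -0.40, SE 0.196). Plat, tissue plasminogen activator and outside the list, rose from 51.1 ± 2.58 to 289 ± 24.7 CPM.

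Host defence genes moved both ways, 13 higher and 6 lower of 32, beside 24.0% higher and 24.5% lower over all tested genes. Dmbt1, a secreted scavenger protein, had 222, 199 and 227 CPM in vehicle and 16.4, 12.5 and 13.9 CPM in H10, 15.1-fold lower. Reg3b, a bactericidal lectin, had 810.2, 824 and 796 CPM and then 260.3, 296 and 276 CPM, 2.92-fold lower, Reg3g fell 1.53-fold and Pigr, the carrier of secretory antibody, fell 1.81-fold from 2234 ± 40.8 CPM. These 4 were lower in every H10 library. Nos2, inducible nitric oxide synthase and an FXR-linked gene of the ileum, rose from 97.3, 121 and 87.0 CPM to 508, 471 and 504 CPM, 4.84-fold. Ccl20, a chemokine, rose from 2.67 to 7.89 CPM and the cytokine Il18 2.07-fold. Interferon and antigen presentation genes gave 19 higher and 1 lower of 47, with H2-K1 up 1.599-fold. The class I gene H2-Q1, outside the list and with close relatives, rose from 6.17 ± 0.428 to 65.6 ± 1.96 CPM.

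Outside the lists, the largest rises with groups apart also included Fam151a (log2 change 3.27, SE 0.285), the alcohol dehydrogenase Adh4 (log2 change 3.15, SE 0.0721), the muscarinic receptor Chrm4 (log2 change 3.06, SE 0.451), Ttyh1 (log2 change 3.05, SE 0.168), the cytoskeletal gene Pdlim2 (log2 change 3.01, SE 0.124) and the aldose reductase relative Akr1b7 (log2 change 2.89, SE 0.0985). Adh4 stood at 14.9, 16.9 and 15 CPM in vehicle and 132, 143 and 142 CPM in H10. The falls included the matrix protein Prelp (log2 change -3.83, SE 0.617), Nmral1 (log2 change -3.45, SE 0.382), Slfn9 (log2 change -3.34, SE 0.218), the replication genes Dtl (log2 change -3.18, SE 0.266) and Timeless (log2 change -3.15, SE 0.250), the polymerase Polq (log2 change -3.01, SE 0.388) and Cyp2w1 (log2 change -3.06, SE 0.362). Cps1, the first enzyme of the urea cycle, was the 1 member of the liver list that changed, from 675, 643 and 641 CPM to 217, 212 and 209 CPM, 3.07-fold lower. It is also an intestinal gene. Alb (log2 change 0.18, SE 0.318) was among the other members, and 19 of the 20 tested were not called. Glucocorticoid-inducible genes gave 7 higher and 2 lower of 18, beside 24.0% higher and 24.5% lower over all tested genes. Fkbp5 was among those that fell, from 19.1, 17.2 and 21.97 CPM to 7.49, 7.23 and 8.19 CPM (log2 change -1.34, SE 0.131, adjusted p = 5.29e-11). Others of its list, Per1 (log2 change 0.082, SE 0.0953) and Tsc22d3 (log2 change 0.19, SE 0.0946), were not called and Sgk1 rose (log2 change 0.70, SE 0.134).

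H10 was then set against each other pool directly. Against H90, which shares the human model and has 90% in place of 10% 12α-hydroxylated bile acids, 4815 genes differed (36.6%), 2417 higher (18.4%) and 2398 lower (18.2%) in H10. Against M10, with the same share and the mouse model, 4779 differed (36.3%), 2385 higher (18.1%) and 2394 lower (18.2%). Against M90 1975 differed (15%), 993 higher (7.55%) and 982 lower (7.46%). Without M90 library b the last of these counts fell to 1303, with 594 higher, and without H10 library b 654 were higher. Scaling by library size alone made 33.1% of the calls against H90 higher in H10 in place of 50.2%, and 74.9% of those against M10 in place of 49.9%, which upper-quartile scaling put at 64.5%. M10 and M90 differ from H10 in transcript set as well as in pool, so for these the set and the pool cannot be told apart. H90 holds libraries of both sets, and H90 a also had 14140 CPM of ribosomal precursor Rn45s against 1739 to 3215 CPM in the other 14. With H90 represented by library a alone, the library of H10's own set and a comparison added after seeing the data, 1883 genes were higher and 1801 lower in H10.

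Cyp24a1 gave the largest difference in favour of H10 over both 90% pools among called genes. Cyp24a1 averaged 199 ± 20.1 CPM in H10, 493 ± 22.3 CPM in M10, 0.651 ± 0.190 CPM in H90 and 0.564 ± 0.233 CPM in M90. H10 exceeded H90 by 8.34 on the log2 scale (SE 0.138, adjusted p = 2.17e-29) and M90 by 8.47 (SE 0.134, adjusted p = 6.06e-30), and it lay 2.47-fold under M10 (adjusted p = 6.29e-16). Both 90% pools were near the floor of detection for this gene, so the SE values against them are too small. S100g averaged 680.2 ± 40.7 CPM in H10, 1003 ± 93.4 CPM in M10, 117 ± 13.4 CPM in H90 and 280.1 ± 32.7 CPM in M90. It was 5.86-fold higher in H10 than in H90 (adjusted p = 3.26e-09) and 2.43-fold higher than in M90 (adjusted p = 5.3e-06). Slc30a10 was 3.78-fold higher in H10 than in H90 (adjusted p = 1.01e-09) and 2.25-fold higher than in M90 (adjusted p = 1.44e-06). Against M10 it differed by a log2 value of -0.26 (95% interval -0.503 to -0.024, adjusted p = 0.0816).

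Fabp6 and Fgf15, targets of FXR, also differed between some of the pools. Fabp6 was 1.46-fold higher in H10 than in H90 (adjusted p = 0.00107), differed from M10 by a log2 difference of 0.004 (95% interval -0.22 to 0.22) and was 1.44-fold lower than in M90 (adjusted p = 0.00397). Fgf15 averaged 973 ± 22.4 CPM in H10, 1375 ± 109.6 CPM in M10, 378 ± 33.8 CPM in H90 and 1012 ± 52.8 CPM in M90. It exceeded H90 2.58-fold (adjusted p = 2.75e-11), was 1.41-fold under M10 (adjusted p = 1.46e-05) and differed from M90 by a log2 value of -0.057 (95% interval -0.20 to 0.090). With H90 library a alone, the log2 differences of H10 over H90 were 8.83 for Cyp24a1, 2.74 for S100g, 1.97 for Slc30a10, 0.71 for Fabp6 and 1.49 for Fgf15.

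Growth genes placed H10 between H90 and M10. All 47 replication genes and all 60 mitosis genes were lower in H10 than in H90, and 39 of 47 and 60 of 60 were higher than in M10. The median distance from M10 was 1.11 for replication and 2.52 for mitosis. Mki67 averaged 202 ± 16.5 CPM in H90, 49.5 ± 4.37 CPM in H10, 57.7 ± 6.54 CPM in M90 and 7.84 ± 2.87 CPM in M10. Against M90 the same lists held 1 higher and 2 lower of 47 and 0 higher and 2 lower of 60. Ribosome biogenesis genes were lower than in H90 for 43 of 50 and higher than in M10 for 45. Olfm4 was 43.4-fold lower in H10 than in H90 (adjusted p = 9.68e-16), and Dmbt1 8.46-fold lower (adjusted p = 8.94e-20). With H90 library a alone these log2 differences were -5.75 and -3.04, and 47 of 47 replication, 60 of 60 mitosis and 39 of 50 ribosome biogenesis genes were lower in H10.

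M90, from which few growth genes differed, stood apart from H10 in lipid and stress genes. Of 49 PPAR targets and oxidation genes 42 were lower in H10 than in M90 and 1 was higher (median log2 -0.41). Cyp4a10 averaged 12.3 ± 3.15 CPM in H10 and 56.6 ± 13.1 in M90, 4.61-fold lower in H10 (adjusted p = 1.28e-07), and Acaa1b was 3.29-fold lower (adjusted p = 2.18e-14). ATF4 genes ran the other way, 27 of 38 higher in H10 than in M90 and 29 higher than in H90 (25 against H90 library a alone). This did not hold against M10, where 6 of the 38 were higher and 9 lower in H10 (median log2 -0.021). Chac1 averaged 74.2 ± 3.37 CPM in H10, 41.8 ± 5.30 in M90 and 28.4 ± 1.92 in H90, 1.78-fold higher in H10 than in M90 (adjusted p = 1.58e-09). Tight junction genes were higher in H10 than in M90 for 18 of 29, where 15 had risen over vehicle and 4 fallen (10 and 9 with library size alone). Cldn4 was among them, at 486 ± 10.3 CPM in H10 and 383 ± 36.3 CPM in M90 (log2 difference 0.34, SE 0.0819). Of the same 29 tight junction genes, 5 were higher and 16 lower in H10 than in M10. Respiratory chain subunits were lower in H10 than in M90 for 33 of 49.

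**Figure D4:**
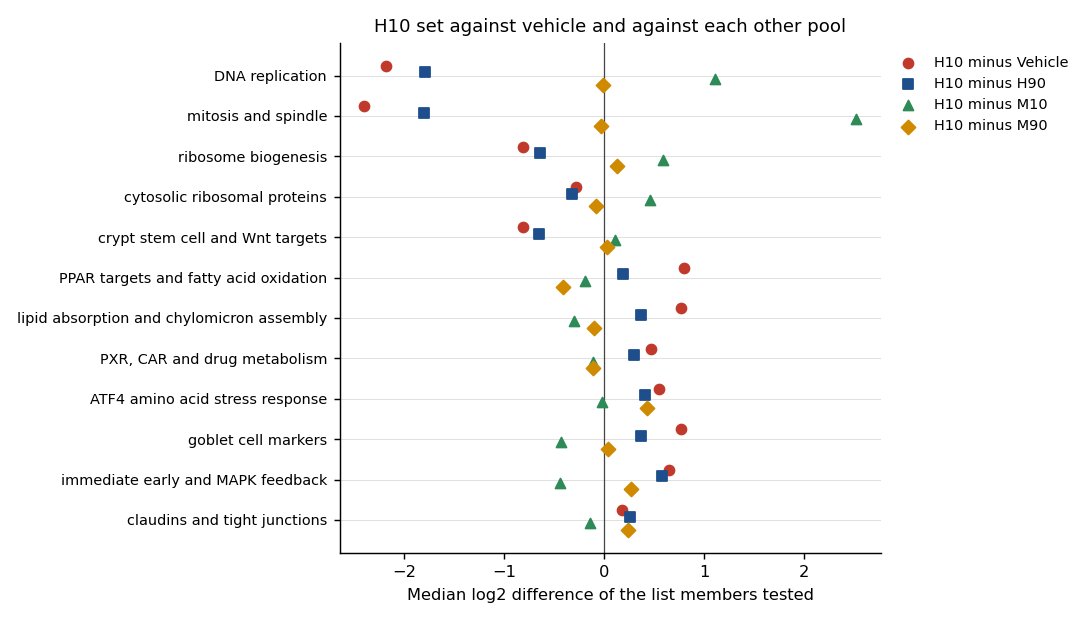
Median log2 difference over the tested members of 12 lists for H10 minus vehicle (red circles), minus H90 (blue squares), minus M10 (green triangles) and minus M90 (orange diamonds). The mitosis list lies at -2.40 against vehicle, under 0 against H90, at 2.52 against M10 and near 0 against M90.

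After Col1a1, the largest differences below M10 by the naming rule were in Fkbp5, Cyp27a1, Psca, Gml, Sgk1, Apoc2 and Apoa4. Of 18 glucocorticoid-inducible genes 3 were higher and 11 lower in H10 than in M10, and of 30 lipid absorption genes 2 and 21. Psca differed by a log2 value of -3.11 (SE 0.196) and Gml by -3.06 (SE 0.647). Apoa4 averaged 411 ± 20.3 CPM in H10 and 2567 ± 166 in M10, 6.25-fold lower in H10 (adjusted p = 2.83e-14), and Apoc2 was 6.34-fold lower (adjusted p = 1.4e-23). Fkbp5 averaged 7.64 ± 0.5005 CPM in H10 and 85.9 ± 6.23 in M10, 11.2-fold lower (adjusted p = 5.38e-22), and Sgk1 was 6.97-fold lower (adjusted p = 6.67e-20). Cyp27a1, a sterol hydroxylase, stood at 2.55 ± 0.333 CPM in vehicle, 2.53 ± 0.418 CPM in H10 and 23.0 ± 2.60 CPM in M10, and its log2 difference between H10 and M10 was -3.19 (SE 0.217). Goblet cell markers were lower in H10 than in M10 for 16 of 24 and higher than in H90 for 13 (12 against H90 library a alone). By rank the liver transcripts Saa1, Saa2, Mup20 and Mup7 and the collagen Col1a1 belong among the largest differences from M10 and M90, and they are the genes that divide the library sets.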

How the data were processed

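Poly-A RNA from 15 libraries of ileal organoids was sequenced after TruSeq preparation. The authors deposited raw read counts per gene symbol, made with bcl2fastq 2.17, STAR 2.5.2b and featureCounts 1.5.0-p3 on mm10, per the submitters' processing notes. The annotation, the strand setting and the treatment of shared reads are not given in the sources used here. No row lacked a gene name. Counts were fitted with edgeR 4.0.16 (robust quasi-likelihood, TMM scaling, filterByExpr, 5 group means, 10 residual degrees of freedom, R 4.3.3), and H10 was contrasted with vehicle and with each other pool. Standard errors are the log2 change over the root of F. For large changes with a group near 0 counts they come out too small. The biological coefficient of variation was 0.08811. Depth ran from 11245807 to 28989526 counts, and 3 counts, the limit that a count of 0 allows, are 0.1035 to 0.2668 CPM. Replicates differed by more than sampling noise. The script was tested on simulated counts with known changes. The H10 and vehicle libraries were taken by their titles. The gene lists and members were chosen with earlier results of these data known. Named genes are the 20 largest called changes each way with groups apart, the 15 largest outside the lists and the 8 largest each way against each pool. These were limited to genes with a mean of at least 2 CPM. Named without that limit are the 10 largest CPM gains and losses, the 5 of each list with the smallest adjusted p, and key members of each list. Further members of the lists were named after their values were seen. Promoters came from RefSeq on GRCm38.p6, and 9799 tested genes had one. Other scalings, filters, tools, fits and left-out libraries were tried. DESeq2 1.42.0 and limma 3.58.1 were alternatives. Some genes of the lists are not reported here by name.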

Additional observations from a re-analysis of the deposited data

How the results depend on the processing

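The numbers of genes changed in H10 against vehicle lay between 6339 and 7214 under other scalings, filters, tools and fits, and between 5723 and 5884 without 1 library at a time. The labels do not say whether the letters a, b and c pair the libraries. Same-letter correlations of deviations were 0.0109, -0.0157 and 0.0247, and those between different letters ran from -0.0263 to 0.0141. These values show no shared effect of a letter, but 3 libraries per group cannot settle whether they were matched. With the letter as a replicate block 3184 genes were higher and 3234 lower, and 3504 and 3710 in the 6 libraries alone. Over 279 genes named for H10 against vehicle and 4740 alternative values, 4676 kept direction and side of the threshold, 3 lost the call, 61 gained one and 0 reversed. Against M10, library size alone gave 4050 higher and 1358 lower. Against M90 the 6 libraries of the contrast gave 2991 genes with 1537 lower, and 2971 with 1523 lower under the replicate block. Without 1 library at a time, that contrast gave 1303 to 1618 genes and 594 to 805 higher. Members higher minus lower came to -10 for the respiratory chain with library size alone and to 1 for liver transcripts with the replicate block in 6 libraries. Among genes changed at least 2-fold, motif shares were 10.3% for E2F, 22.5% for CHR and 47.5% for CCAAT in those lower, and 2.53% for the inverted repeat, 6.04% for the direct repeat and 2.53% for the ATF4 element in those higher. The cause was not tested. Depth limits genes near 0 in vehicle, such as Nr0b2 and Cyp24a1.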

Other observations

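Genes that mark the upper villus or vary along it gave 17 higher and 0 lower of 25 tested. Gda, guanine deaminase, rose from 15.98 ± 0.997 to 56.4 ± 4.39 CPM and Ifrd1, a regulator of regeneration, from 43.4 ± 5.31 to 137 ± 2.41 CPM. The nucleoside carrier Slc28a2 was not called, at 5.67 ± 0.879 and 3.37 ± 0.837 CPM. Lysosome and autophagy genes moved by small steps, 20 higher and 2 lower of 40, which became 10 and 9 with library size alone. The lysosomal lipase Lipa rose 2.44-fold and the autophagy receptor Sqstm1, also an NRF2 target, 2.13-fold, whereas Tfeb, the lysosomal master factor, was not called (log2 change -0.007, SE 0.121).

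Ceramide genes divided, 12 higher and 9 lower of 26 (10 and 11 with library size alone). Among ceramide synthases Cers2 rose 1.58-fold and Cers4 fell 2.28-fold. Among ceramidases the brush border enzyme Asah2 rose 2.19-fold to 219 ± 14.2 CPM and Acer1 fell 2.29-fold to 18.3 ± 2.78 CPM. Cell death genes gave 12 higher and 1 lower of 23. The death receptor Tnfrsf10b rose 1.77-fold and Pmaip1, the BH3 protein NOXA, 1.66-fold. The clock repressor Nr1d1 rose 1.71-fold. Hsd11b2, which inactivates glucocorticoid, fell from 11.4 ± 1.597 to 3.90 ± 0.903 CPM. All genes named here as risen or fallen had H10 and vehicle libraries that did not overlap.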
